A study of Mus musculus with 2 samples.

Results

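The proteasome subunit genes were followed in macrophages sorted from fetal liver of mice that lacked c-Maf and of wild-type mice. Genes were taken when their symbol was Psma, Psmb, Psmc, Psmd or Psme followed by a number and when a probe set carried that symbol alone, which gave 42 genes of 18193 on the array. Each gene was read from its probe set with the highest mean signal. The groups were c-Maf KO, from c-Maf-/- embryos, and wild type, from c-Maf+/+ embryos, with 1 Affymetrix array each. Both were C57BL/6J embryos at stage E15.5, and in both the cells were sorted as positive for Mac-1, encoded by Itgam, and F4/80, encoded by Adgre1. How many embryos went into each sort was not stated in the labels. With 1 array per genotype there was no replicate check, no test and no p-value, and the number of arrays limits the precision of every value.

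The proteasome degrades proteins tagged with ubiquitin. Its core particle is a barrel of alpha rings, which gate the entrance, and beta rings, which hold the cutting sites, and a regulatory particle on its ends recognises, unfolds and feeds in the substrate. In immune cells, and in other cells under interferon, the cutting subunits Psmb5, Psmb6 and Psmb7 can be replaced by Psmb8, Psmb9 and Psmb10, and the activator of Psme1 and Psme2 can cap the core. This immunoproteasome is known for making peptides for MHC class I, and macrophages express it.

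The deposited values are linear intensities, and the c-Maf KO array was dimmer. Its median over all probe sets was 2.98, against 4.73 on the wild-type array. Ratios below are therefore level-adjusted: both arrays were brought to the same distribution of signals by quantile normalization, values under a floor of 3.75 (the median adjusted signal) were raised to it, and the log2 ratio of c-Maf KO over wild type was taken. Genes that reached the floor on 1 array or both count as measured, and a ratio of at least 2-fold counts as lower or higher. Signals are given as deposited. Pairs of probe sets of one gene differed in their ratio with an SD of 0.97 log2 units, which is 0.69 for a single ratio (3247 pairs in 1592 genes). Only probe sets that reached the floor on both arrays, and 4 times the floor on at least 1, were paired. This serves as a yardstick but holds no variation of embryos, sorts or arrays.

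Maf itself had a signal of 0.219 on the c-Maf KO array and 47.6 on the wild-type array at its brightest probe set, at least 8.51-fold lower after level adjustment. It is not known here if that probe set lies within the deletion. The 9 measured macrophage markers summed to 466 in c-Maf KO and 878 in wild type, and their median ratio was 0.61, with 4 at least 2-fold higher (Cd68, Fcgr1, Aif1 and Fcer1g) and 0 lower. Cd68 had 17.0 in c-Maf KO and 12.6 in wild type. Csf1r, the brightest of these markers, had 248 in c-Maf KO and 625 in wild type (-0.24). Mertk was also below 0, at -0.76. Of the sort markers, Adgre1 had 48.1 in c-Maf KO and 71.4 in wild type, and Itgam lay near the floor with 3.94 in c-Maf KO and 5.76 in wild type. Markers of other cells were bright. The 10 granulocyte markers summed to 8743 in c-Maf KO and 15129 in wild type. S100a8 (3317 in c-Maf KO) and S100a9 (3812 in c-Maf KO) made up most of this, with ratios of 0 and 0.07. The granulocyte median ratio was -0.30, with 2 at least 2-fold lower and 0 higher. The 9 erythroid markers summed to 5344 in c-Maf KO and 8438 in wild type, mostly from Hbb-y (4650 in c-Maf KO). Their median ratio was 0.04 over 8 measured, with 0 lower and 1 higher. For comparison, 9.05% of all measured genes were at least 2-fold lower and 8.34% higher. Of 9 hepatoblast markers, 7 were measured and all 7 were at least 2-fold higher, with a sum of 566 in c-Maf KO and 357 in wild type. Apob and Fgb, also hepatoblast markers, were below the floor on both arrays. The 3'/5' signal ratio was 6.05 in c-Maf KO and 13.3 in wild type for Actb, and 0.901 and 1.83 for Gapdh, again with c-Maf KO first. The part of cell makeup and of RNA quality in the values below was not tested, and fewer cells of a type cannot be told apart from less RNA per cell.

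Most proteasome genes stayed within 2-fold, and Psmd13 was far lower than the others. After level adjustment their median lay above that of all measured genes, while as deposited both medians were nearly equal. Of the 42 genes, 40 were measured, and all 40 were above the floor on both arrays. Only 1 of the 40 was at least 2-fold lower, against 9.05% of all 13290 measured genes, and 6 were at least 2-fold higher, against 8.34% of all measured genes. The other 33 were within 2-fold. The median ratio of the 40 was 0.35, with 28 above 0 and 12 below, and the median of all measured genes was 0.01. Among the 5553 genes at 4 times the floor or brighter, to which 39 members belong, 12.0% were lower, 8.63% were higher and the median was -0.05.

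Against all measured genes the difference depended on the scale, and against bright genes it changed little. As deposited, the members' median was -0.82. The all-gene median was -0.84 over those of the 13290 genes that also reached the floor as deposited. Over the 13479 genes measured as deposited, the member median minus the all-gene median was -0.03, so the sign depended on the gene set. The 39 bright members had a median of 0.36 after level adjustment, against -0.05 for bright genes, a difference of 0.41. As deposited they had -0.81, against -1.17 for bright genes, a difference of 0.35. As deposited, 14 members were at least 2-fold lower, against 39.8% of genes, and 0 were at least 2-fold higher, against 1.19%. Scaled on the hybridisation controls, 22 members were lower and 0 were higher. The share of all genes on that scale is not given here, so these counts say nothing particular to the members. Of the 28 members above 0 after level adjustment, 24 were below 0 as deposited and 26 when scaled on the hybridisation controls. Only 4 members had a higher deposited signal in c-Maf KO than in wild type: Psmb2, Psmc1, Psmd7 and Psmd8.

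**Figure D1:**
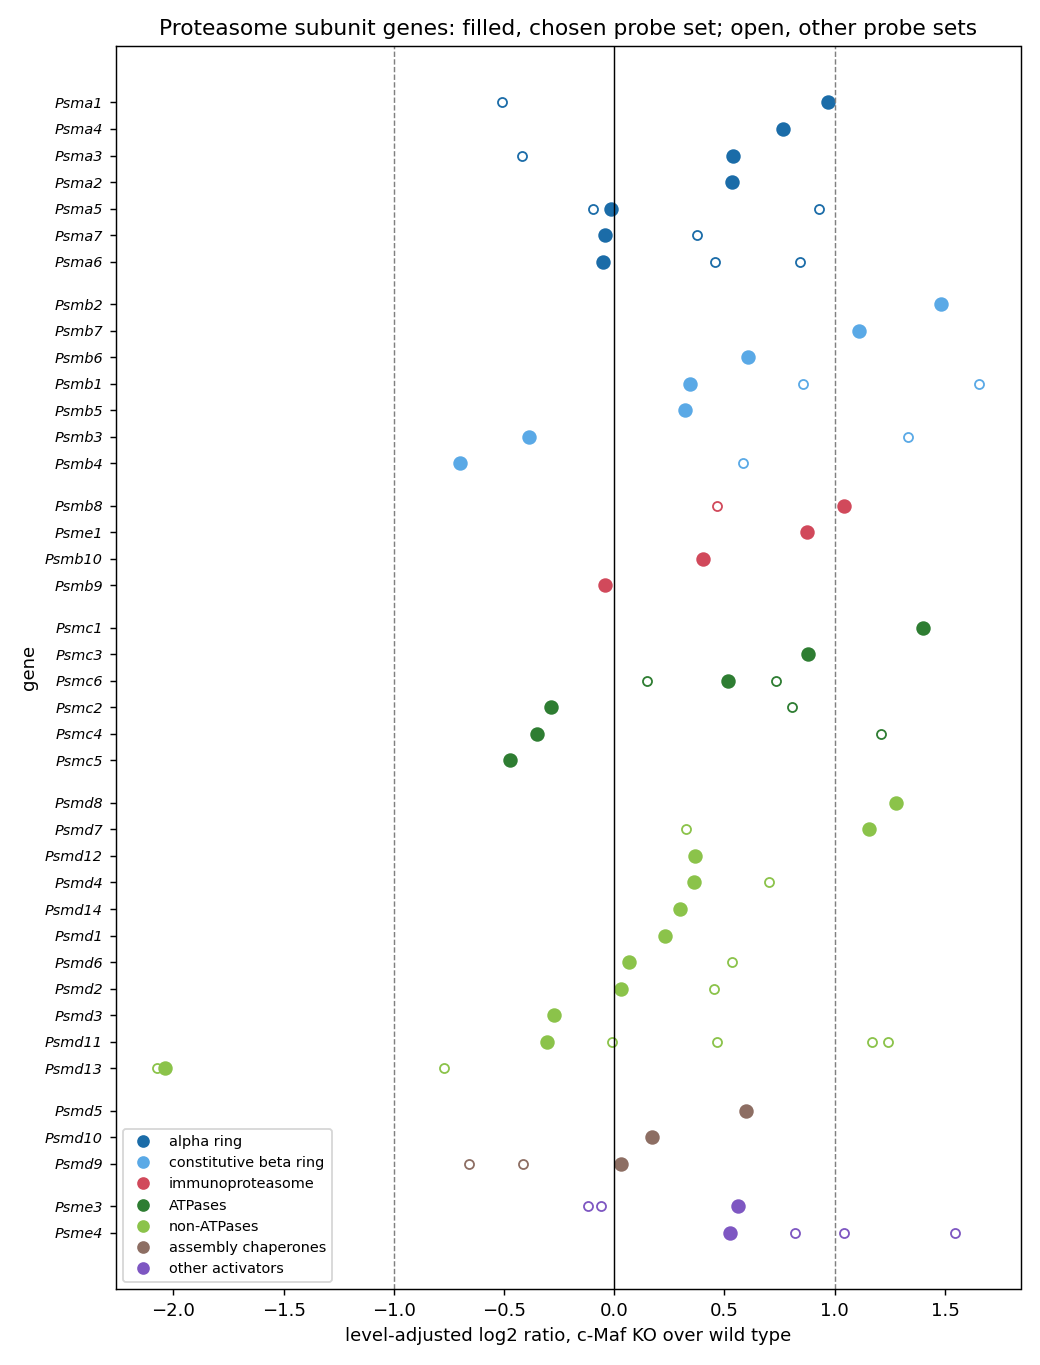
Level-adjusted log2 ratio of c-Maf KO over wild type (x axis) for the 40 measured proteasome genes, 1 gene a row and grouped by role. Filled points are the chosen probe sets, open points the other measured probe sets of the gene, and dashed lines mark 2-fold; Psmd13 lies alone at -2.04, and 6 filled points lie past the right-hand line.

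The alpha ring, whose subunits form the gate of the core, showed no member past 2-fold among its 7, and its median was 0.54. Psma1 had a signal of 59.1 in c-Maf KO and 68.6 in wild type, a log2 ratio of 0.97, while a dimmer probe set was at -0.51. Psma4 had 76.4 in c-Maf KO and 101 in wild type, with a ratio of 0.77. Psma2 (63.1 in c-Maf KO, 98.2 in wild type) and Psma3 (192 in c-Maf KO, 295 in wild type) both came to 0.54, and a dimmer probe set of Psma3 was at -0.42. For Psma5, Psma7 and Psma6 the chosen probe sets sat at the level of the array as a whole. Psma5 had 104 in c-Maf KO and 238 in wild type (-0.015), Psma7 had 99.9 in c-Maf KO and 233 in wild type (-0.042), and Psma6 had 522 in c-Maf KO and 997 in wild type (-0.051). Dimmer probe sets of these genes were above 0, at 0.93 for Psma5, 0.38 for Psma7, and 0.46 and 0.84 for Psma6. Another of Psma5 was below the floor in c-Maf KO, a ratio of -0.098 or lower. Psma8, a variant alpha subunit of the testis, was below the floor on both arrays with 2.76 in c-Maf KO and 2.84 in wild type.

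The constitutive beta ring spread more widely, from -0.70 to 1.48 with a median of 0.34, and 2 of its 7 members were at least 2-fold higher. Psmb2, a beta subunit without a cutting site, had 37.7 in c-Maf KO and 29.6 in wild type, a log2 ratio of 1.48 that stayed above 0 as deposited (0.35). Psmb7, the trypsin-like cutting subunit, had 64.1 in c-Maf KO and 67.5 in wild type, which is 1.11 after level adjustment and -0.075 as deposited. The other cutting subunits were within 2-fold. Psmb6, the caspase-like one, had 55.5 in c-Maf KO and 82.6 in wild type (0.61), and Psmb5, the chymotrypsin-like one, had 46.2 in c-Maf KO and 82.9 in wild type (0.32). Psmb1, a structural subunit, had 68.7 in c-Maf KO and 124 in wild type (0.34). At the low end stood the structural subunits Psmb3 and Psmb4. Psmb3 had 116 in c-Maf KO and 345 in wild type (-0.39), while its other probe set had 36.1 in c-Maf KO and 31.6 in wild type (1.33). Psmb4 had 279.9 in c-Maf KO and 906 in wild type (-0.70), while its other probe set had 98.8 in c-Maf KO and 150.3 in wild type (0.58). For both genes the probe sets thus lay on opposite sides of 0. Psmb11, the beta subunit of thymic epithelium, was below the floor on both arrays.

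**Figure D2:**
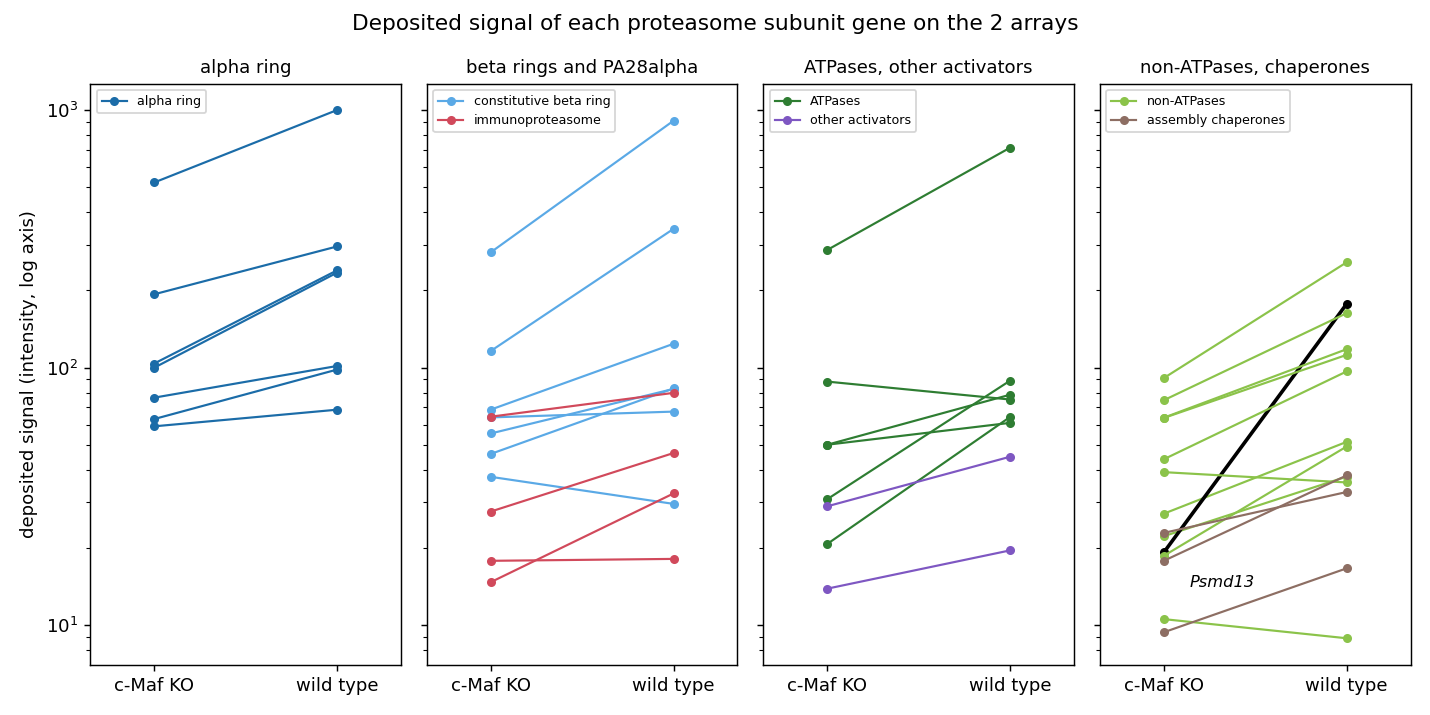
Deposited signal (log axis) of each measured proteasome gene on the c-Maf KO array (left in each panel) and the wild-type array (right), 1 line a gene and 1 panel for each set of roles. All but 4 lines climb toward wild type, and the black line of Psmd13, with 19.2 in c-Maf KO and 176 in wild type, is the steepest.

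Of the immunoproteasome, 4 of 5 genes could be read, since Psme2 had no probe set of its own symbol alone. The median was 0.64, and the ratios ran from -0.044 to 1.04. Psmb8, the inducible partner of Psmb5, had 17.8 in c-Maf KO and 18.1 in wild type, at least 2-fold higher after level adjustment (1.04) but -0.025 as deposited. The Psmb8 call ended with its second probe set (0.46), with the mean over both (0.75) and with the floor as a pseudocount (0.86). Psme1, the alpha chain of the activator, had 64.5 in c-Maf KO and 79.7 in wild type (0.88). Psmb10, the inducible partner of Psmb7, had 27.6 in c-Maf KO and 46.6 in wild type (0.40). Psmb9, the inducible partner of Psmb6, had 14.7 in c-Maf KO and 32.5 in wild type (-0.044). On these arrays Psmb8, Psme1 and Psmb10 therefore lay above the median member, and Psmb9 below it.

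Set against the constitutive subunit that each replaces, the inducible subunits went in both directions. The ratio of Psmb8 exceeded that of Psmb5 by 0.72 log2 units. Psmb9 minus Psmb6 was -0.65, and Psmb10 minus Psmb7 was -0.71. None of these differences reached 0.97, the SD that the yardstick gives for a difference of 2 ratios. Psme1 minus Psme3, the nuclear activator of the same family, was 0.32. The immunoproteasome median exceeded that of the 14 constitutive core genes (0.44) by 0.20. Without Psmb8 this difference was -0.04, so its sign rested on that 1 gene.

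The ATPases, the ring of motors that unfolds the substrate, split evenly with 3 of 6 above 0 and a median of 0.11. Psmc1 had 88.2 in c-Maf KO and 75.1 in wild type, at least 2-fold higher (1.40; 0.23 as deposited). Psmc3 had 50.2 in c-Maf KO and 61.0 in wild type (0.88), and Psmc6 had 50.2 in c-Maf KO and 78.4 in wild type (0.52). The other three lay below 0. Psmc2 had 286 in c-Maf KO and 712 in wild type (-0.29), Psmc4 had 30.9 in c-Maf KO and 88.9 in wild type (-0.35), and Psmc5 had 20.7 in c-Maf KO and 64.3 in wild type (-0.47). For Psmc2 and Psmc4 a dimmer probe set was above 0, at 0.80 and 1.21.

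Among the 11 non-ATPase subunits, which dock, bind and strip ubiquitin chains, 2 were at least 2-fold higher, 1 was lower and 8 were within 2-fold, with a median of 0.23. Psmd8, a subunit of the lid, had 39.3 in c-Maf KO and 35.8 in wild type (1.28; 0.13 as deposited). Psmd7, the lid partner of Psmd14, was dim with 10.6 in c-Maf KO and 8.91 in wild type (1.16, and 0.25 as deposited). Its second probe set was below the floor in wild type, a log2 ratio of 0.33 or higher. The call was not met at that bound, nor at the mean over its probe sets (0.74), which includes the bound. The subunits that handle ubiquitin directly were within 2-fold. Psmd14, which cuts ubiquitin off the substrate, had 63.9 in c-Maf KO and 118 in wild type (0.30), and Psmd4, a ubiquitin receptor, had 63.7 in c-Maf KO and 112 in wild type (0.36). Psmd12, of the lid, had 22.2 in c-Maf KO and 37.7 in wild type (0.37). The large scaffold subunits of the base were close to the array as a whole, with Psmd1 at 0.23 and Psmd2 at 0.03. Psmd6, of the lid, was at 0.07. Psmd3, a lid subunit, had 18.6 in c-Maf KO and 49.4 in wild type (-0.27). Psmd11, another lid subunit, had 91.0 in c-Maf KO and 256 in wild type (-0.31), and 2 of its 5 measured probe sets were below 0.

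Psmd13 stood apart from every other member. It encodes Rpn9, a lid subunit. Its chosen probe set had a signal of 19.2 in c-Maf KO and 176 in wild type, 4.10-fold lower after level adjustment (log2 ratio -2.04; -3.20 as deposited). The next lowest member, Psmb4, was at -0.70. Only 0.662% of all measured genes had a ratio as low as or lower than that of Psmd13. Its other probe sets went the same way. A second one had 10.6 in c-Maf KO and 96.0 in wild type (-2.08), and another had 1.88 in c-Maf KO, below the floor, and 8.41 in wild type, a log2 ratio of -0.77 or lower. The last one was below the floor on both arrays. How far these probe sets share sequence is not known here.

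Among the 12 members below 0, 9 had at least 2 measured probe sets. For 8 of these 9 another probe set was above 0, and Psmd13 was the exception. Psma5, Psma6 and Psma7, among the 8, lay near 0 at -0.015, -0.051 and -0.042. The share of all genes whose probe sets differ in sign is not given here, so these counts have no background. Of the 28 members above 0, 12 had at least 2 measured probe sets, and for 4 of these 12 another probe set was below 0. Among 19 members with at least 2 probe sets above the floor on both arrays, the brightest had a lower ratio than the second in 13, or 68.4%, against 58.6% of 3489 genes on the whole array. Chosen probe sets with a suffix (_a, _s or _x, which mark sets that can match several transcripts) had a median of 0.12 in 20 members, and plain ones had 0.60 in the other 20. Over all measured genes the medians were -0.04 with a suffix and 0.02 without. Suffixed sets made up 4 of 7 in the alpha ring, 4 of 7 in the constitutive beta ring, 6 of 11 among the non-ATPases and 1 of 4 in the immunoproteasome.

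**Figure D3:**
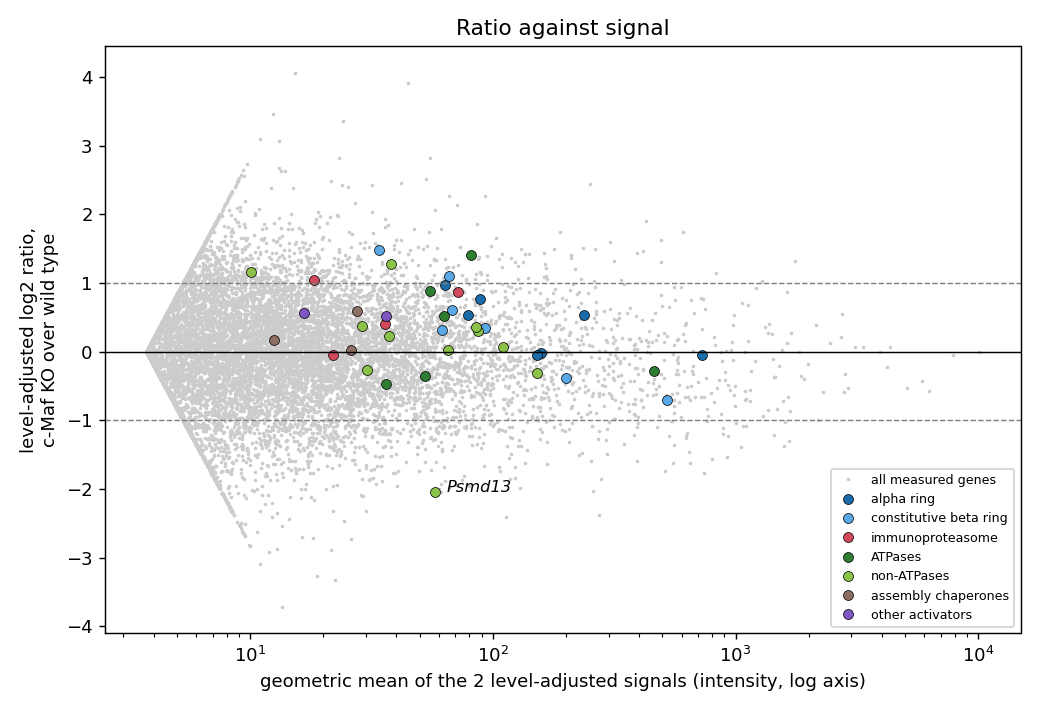
Level-adjusted log2 ratio of c-Maf KO over wild type (y axis) against the geometric mean of both adjusted signals (x axis, log scale) for all 13290 measured genes in grey and the proteasome genes in colour by role. Most members lie in the bright part of the array between the dashed 2-fold lines, and Psmd13 at -2.04 lies below them; the wedge at the left edge is made by the floor.

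The regulatory particle as a whole, with its 20 genes, had a median of 0.20, which is 0.24 below that of the constitutive core (first minus second -0.24). Without Psmd13 the regulatory median was 0.23. The 3 assembly chaperones counted in it do not belong to the finished particle and were all within 2-fold: Psmd5 at 0.60, Psmd10 (gankyrin) at 0.17 and Psmd9 at 0.03. Dimmer probe sets of Psmd9 were below 0, at -0.41 and at a bound of -0.66. The other activators of the core were within 2-fold too. Psme3 had 13.9 in c-Maf KO and 19.5 in wild type (0.56), but its dimmer probe sets were below 0, at -0.12 and at a bound of -0.06. Psme4, which caps the core in nuclei, had 29.0 in c-Maf KO and 45.1 in wild type (0.52), with all 4 of its measured probe sets above 0.

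Gene sets of other large housekeeping complexes had medians of the same order. Cytosolic ribosomal protein genes had a median of 0.36 (41 measured of 43, 1 lower, 3 higher). Mitochondrial ribosomal protein genes had 0.19 (76 measured, 2 lower, 7 higher), and oxidative phosphorylation genes had 0.24 (85 measured of 89, 3 lower, 8 higher). Of all measured genes, 9.05% were lower and 8.34% higher. The oxidative phosphorylation set was taken by symbol and also holds assembly factors that are not subunits, namely Cox10, Cox11 and Cox15 to Cox20. The proteasome median of 0.35 thus lay within the range of these sets. No gene of these 3 sets had a ratio as low as that of Psmd13, since their lowest were -1.15, -1.36 and -1.23. As deposited the order differed, with -0.82 for the proteasome, -0.41 for cytosolic ribosomal proteins, -0.89 for mitochondrial ribosomal proteins and -0.93 for oxidative phosphorylation.

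**Figure D4:**
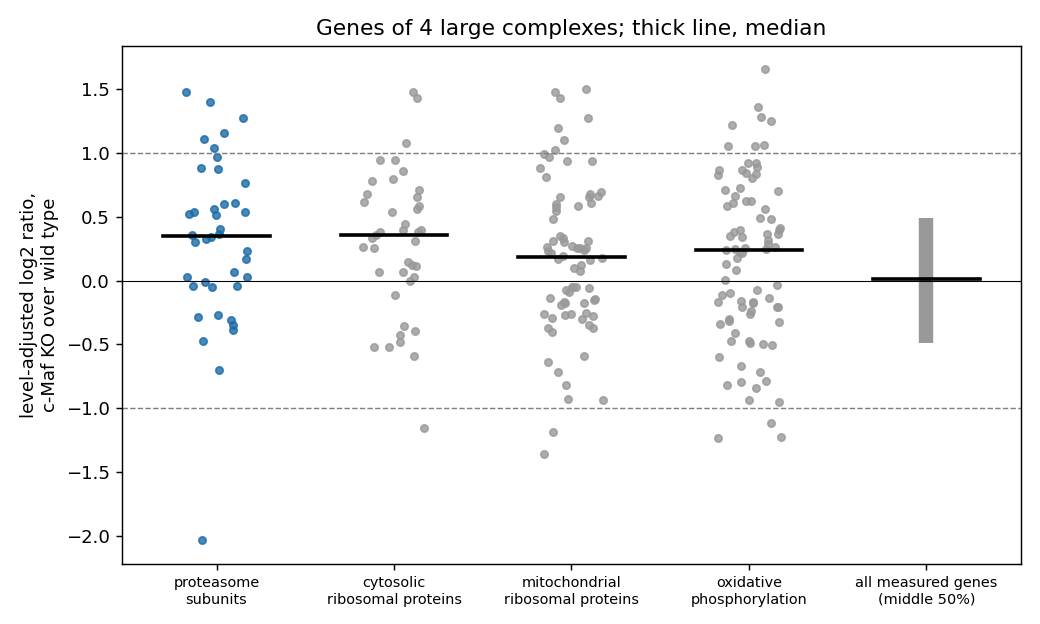
Level-adjusted log2 ratio of c-Maf KO over wild type (y axis) for each measured gene of the proteasome and of 3 other gene sets, with the median as a thick line. The oxidative phosphorylation set also holds assembly factors. The grey bar at the right is the middle 50% of all measured genes. The proteasome median of 0.35 lies beside that of the cytosolic ribosomal proteins at 0.36, and Psmd13 is the lowest point shown.

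Genes that work with the proteasome were read from lists of pathway members. Of 12 measured assembly and associated factors, 1 was at least 2-fold lower and 0 higher, against 9.05% and 8.34% of all measured genes. Their median was 0.25. Ecpas, which tethers the regulatory particle to the core, had 5.64 in c-Maf KO and 32.5 in wild type (-1.57), but 1 of its 4 measured probe sets was above 0 and their mean was -0.75. Usp14, a deubiquitinase that docks on the proteasome, had 199.6 in c-Maf KO and 228 in wild type (0.98). The core assembly chaperones went in both directions. Psmg1 and Psmg4 were at 0.81 and 0.75 and Pomp at 0.20, while Psmg2 and Psmg3 were at -0.33 and -0.47. Only 1 of the 3 measured probe sets of Psmg2 was below 0. Pomp, Psmg2 and Psmg3 were named after their values were seen. Nfe2l1, the transcription factor that induces proteasome genes when the proteasome is impaired, had 13.1 in c-Maf KO and 26.5 in wild type (0.06); it was chosen after its value was seen.

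Ubiquitin shuttling and unfolding genes had a median of -0.54 over 7 measured of 13 listed, with 1 lower (9.05% of all measured genes were) and 0 higher. Rad23b and Ufd1, named after their values were seen, were just above 0 at 0.034 and 0.045. The shuttle genes Ubqln4, Ubqln2 and Ubqln1 were at -1.07, -0.89 and -0.67, and Ubqln1 had another probe set above 0. The mean over probe sets left Ubqln4 just within 2-fold. Vcp, the segregase that extracts ubiquitin-tagged proteins, had 97.9 in c-Maf KO and 322 in wild type (-0.54). MHC class I processing genes and their inducers also had a median of -0.54. Of 14 measured, 2 were lower and 1 was higher, against 9.05% and 8.34% of all measured genes. Canx, an endoplasmic reticulum chaperone, had 53.8 in c-Maf KO and 315 in wild type (-1.38), although the mean over its probe sets was -0.36. Irf8, a transcription factor of myeloid cells, had 26.5 in c-Maf KO and 129 in wild type (-1.11), but the mean over its probe sets was -0.68 and the second brightest was at -0.24. B2m, the light chain of MHC class I, had 128 in c-Maf KO and 110.3 in wild type (1.37). Tapbp, which loads peptides, had 12.4 in c-Maf KO and 53.1 in wild type (-0.99). The peptide transporter genes Tap1 and Tap2, named after their values were seen, are neighbours of Psmb9 and Psmb8 on chromosome 17 and were at -0.49 and -0.97.

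Promoter sequence was available for 35 of the 42 genes as RefSeq windows of the GRCm38.p6 build, each from 250 bases before to 50 after the start. The motifs searched on both strands were the antioxidant response element TGACNNNGC, which Nfe2l1 and Nfe2l2 bind, the interferon element (GAAA, 2 bases of any kind, GAAA), the partial Maf element TGCTGAC, and CCAAT. The first was found in 6 of 35 genes (17.1%; 12.4% of all 32851 windows), and the second in 4 (11.4%; 3.44%). The partial Maf element was found in 1 (2.86%; 4.67%), Psmb11, and CCAAT in 14 (40.0%; 37.4%). The member shares count genes with a match in any of their windows, while the background shares count windows, so they are unlike measures. The antioxidant element overlaps the partial Maf element where both are complete. Genes with the antioxidant element were Psmb5, Psmb6, Psmc6, Psmd9, Psmd12 and Psme4, whose ratios ran from 0.03 to 0.61. Those with the interferon element were Psmb3 (-0.39), Psmd4 (0.36), Psmd9 (0.03) and Psme1 (0.88). The windows of Psmb8, Psmb9 and Psmb10 did not hold it. Matches are descriptions of letters and not binding sites.

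The promoters of 4 genes are shown because their genes carry the values above: Psmd13 as the lowest member, Psmc1 as the highest with a window, and Psmb8 with the subunit it replaces, Psmb5. Each line gives the 200 bases before the start on the gene's strand, 5′ to 3′, with motif matches in capitals.
Psmd13, chr7:140882194-140882393, plus strand: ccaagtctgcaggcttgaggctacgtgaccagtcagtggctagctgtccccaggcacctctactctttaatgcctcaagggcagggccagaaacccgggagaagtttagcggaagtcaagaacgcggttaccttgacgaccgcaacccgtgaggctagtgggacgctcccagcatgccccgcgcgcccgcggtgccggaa
Psmc1, chr12:100110002-100110201, plus strand: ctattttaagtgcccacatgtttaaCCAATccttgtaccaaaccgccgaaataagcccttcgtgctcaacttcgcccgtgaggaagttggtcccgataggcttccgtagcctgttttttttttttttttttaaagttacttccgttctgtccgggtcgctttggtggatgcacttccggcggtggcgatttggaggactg
Psmb8, chr17:34197995-34198194, plus strand: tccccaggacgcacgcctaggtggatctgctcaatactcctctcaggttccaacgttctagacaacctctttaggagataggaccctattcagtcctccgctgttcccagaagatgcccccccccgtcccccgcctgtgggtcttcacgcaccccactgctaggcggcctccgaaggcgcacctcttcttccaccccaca
Psmb5, chr14:54617996-54618195, minus strand: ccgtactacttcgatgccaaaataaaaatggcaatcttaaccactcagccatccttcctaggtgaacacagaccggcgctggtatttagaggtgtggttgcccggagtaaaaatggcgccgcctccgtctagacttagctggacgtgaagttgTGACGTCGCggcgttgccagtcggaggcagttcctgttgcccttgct
The capitals are CCAAT in Psmc1 and the antioxidant element in Psmb5, and the stretches of Psmd13 and Psmb8 held none of the 4 motifs. The G and C content was 62.0% for Psmd13, 48.0% for Psmc1, 60.5% for Psmb8 and 53.5% for Psmb5.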

How the data were processed

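Total RNA of sorted fetal liver macrophages was labelled with biotin and hybridised to Affymetrix arrays, per the labels' protocols, 1 array per genotype. The authors deposited 1 linear intensity for each of 45101 probe sets. Their summarisation, scaling and filters are not given in the sources used. Genes were named from the platform annotation: 34945 probe sets had 1 symbol, 932 had several and were not used, and 34741 symbols were matched through Entrez identifiers to GRCm38.p6. Values carry no genome build.

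Signals were quantile normalized (geometric mean of the sorted values), floored at the 50th percentile and compared as log2 ratios in Python 3.11.15 with numpy 2.4.6 and pandas 2.3.3. The steps were run on simulated data with a uniform level shift, noise below the yardstick and large changes in bright genes only. That run therefore does not measure their accuracy on these arrays. Alternatives were other scalings, floors, probe-set choices and thresholds. Members, lists and the main scale were chosen with earlier results of these data known. Every member could be named, and of each pathway list up to 4 genes with the largest absolute ratio. Intensities carry no counts, so no depth can be given.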

Additional observations from a re-analysis of the deposited data

How the results depend on the processing

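Of the 3 median differences, 2 changed sign among the alternatives. The member median minus the all-gene median was 0.34. It was -0.03 as deposited and with centred ratios, both over the 13479 genes measured as deposited. With hybridisation controls it was -0.07, with equal medians 0.07, and at most 0.55, with probe sets without a suffix. The immunoproteasome minus constitutive core median was 0.20 and at most 0.21, but -0.04 without Psmb8. It was -0.21 without suffixed probe sets, which leaves out Psmb8 and Psmb5, and -0.06 with the second brightest probe set, which leaves Psmb8 alone in the immunoproteasome. The regulatory minus core median ran from -0.29 to -0.03.

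The number of members at least 2-fold lower, 1 after level adjustment, was 14 as deposited, 2 with equal medians, 22 with hybridisation controls, 0 without suffixed probe sets, 2 at a threshold of 1.5-fold, and 0 without Psmd13. The number higher, 6, was 0 as deposited, 1 with equal medians, 3 with centred ratios, 0 with hybridisation controls, 3 with the second brightest probe set (21 members measured), 12 at 1.5-fold and 0 at 3-fold. As deposited, 39.8% of all measured genes were lower and 1.19% higher. For the other settings the share of all genes is not given here, so those counts have no background. Without suffixed sets Psmd13 is read from a probe set that was below the floor in c-Maf KO, a bound of -0.77. Its ratio was between -3.44 and -0.77 throughout. Of the 28 members above 0, 24 were below it as deposited and 26 with hybridisation controls. Among the genes at least 2-fold higher, these turned as deposited: Psmb7 (-0.075) and Psmb8 (-0.025). With hybridisation controls these turned: Psmb7 (-0.32), Psmb8 (-0.27), Psmc1 (-0.010), Psmd8 (-0.11) and B2m (-0.023). The cause of the changes with scaling was not tested. Leaving out Psmd13, leaving out Psmb8 and a quantile target of arithmetic means were chosen after seeing the data. No paired analysis was possible because each genotype had 1 array.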
